A study of Mus musculus with 6 samples.

Results

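The serpin, TIMP, ADAM, ADAMTS and MMP genes of sorted mouse embryonic stem cell (ESC) fractions are described here as 2 classes, protease inhibitors and metalloproteases. Members were all rows of the count table whose symbol begins with Serpin, Adam, Mmp or Timp followed by a family letter or number, with the ADAMTS and ADAMTS-like (ADAMTSL) genes included and Serpinh1, a collagen chaperone, left out. The rule took 152 of the 38561 rows and used no measured value. It found 62 serpins, 4 TIMPs, 34 ADAMs, 19 ADAMTSs, 5 ADAMTSLs, 23 MMPs and 5 pseudogene or opposite-strand symbols, the last in no class. Inhibitors are the 66 serpins and TIMPs, and proteases the 76 ADAMs, ADAMTSs and MMPs. ADAMTSL proteins have no catalytic domain and were kept apart, while ADAMs without a working protease site were left in the protease class.

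Serpins are suicide inhibitors, mostly of serine proteases: the target cuts an exposed loop and is trapped as the serpin changes shape. A few serpins, such as the product of Serpinf1, inhibit no protease. TIMPs are small secreted proteins that plug the zinc site of MMPs, and TIMP3 also blocks several ADAMs and ADAMTSs. ADAMs are membrane-anchored and release the outer parts of surface proteins, ADAMTSs are secreted and cut proteoglycans and procollagens, and MMPs degrade matrix from the medium or the cell surface. In the mouse blastocyst the extraembryonic endoderm lays down and remodels a thick basement membrane, a setting in which plasminogen activators, MMPs and TIMPs have long been studied.

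The cells, of strain background 129X1/SvJ x 129S1/Sv, came from feeder-free cultures that the labels call undifferentiated, at passages 13 to 17, kept on gelatin in serum replacement medium with leukemia inhibitory factor at 1000 U/ml. Single cells were freed with a dissociation buffer, stained and sorted on PECAM1, an adhesion protein of ESCs, and PDGFRa, a growth factor receptor found on primitive endoderm. The PDGFRa-only fraction (PECAM1minPDGFRaplus in the labels), the double-positive fraction (PECAM1plusPDGFRaplus) and the PECAM1-only fraction (PECAM1plusPDGFRamin) each had 2 libraries, numbered 1 and 2 after the labels' experiments, and RNA from 100000 sorted events was amplified for each. No genotype or treatment differed between the fractions. The labels do not say whether the numbers are separate cultures, so a p-value measures only the spread between these libraries, which may be technical.

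The sorting proteins' genes followed the gates. Pecam1 had 1.57 and 1.51 CPM (counts per 1000000 after TMM scaling) in the PDGFRa-only libraries, 53.8 and 44.9 CPM in the double-positive and 166 and 143 CPM in the PECAM1-only libraries. Pdgfra had 509 and 605 CPM, 552 and 518 CPM, and 2.04 and 1.88 CPM in the same order. Markers of primitive endoderm (6 genes) summed to 8864 to 9996 CPM in the PDGFRa-only, 6578 to 7177 CPM in the double-positive and 17.0 to 20.4 CPM in the PECAM1-only libraries, and those of parietal endoderm (5 genes) to 16891 to 19859 CPM, 12305 to 13204 CPM and 325 to 347 CPM. Visceral endoderm markers (5 genes) were lower but in the same order, at 86.7 to 95.6 CPM, 62.2 to 72.4 CPM and 13.8 to 16.6 CPM. This sum was mostly Hnf4a, with 67.8 and 85.5 CPM in the PDGFRa-only libraries, and Ttr, with 16.4 and 9.67 CPM. Afp, Apoa1 and Trf had 14, 7 and 3 counts over all libraries. Pluripotency markers (6 genes) ran the other way, at 108 to 153 CPM, 408 to 478 CPM and 1357 to 1416 CPM. Pou5f1 still had 97.0 and 56.5 CPM in the PDGFRa-only libraries, against 144 and 132 CPM in the PECAM1-only libraries. Nanog had 0.449 and 0.453 CPM against 169 and 228 CPM. Of cells that could carry along matrix proteases, fibroblast markers (8 genes) summed to at most 5.79 CPM in any library with Prrx1 and Twist2 at 0 counts, and the leukocyte gene Ptprc had 0 counts. Endothelial markers (5 genes) summed to 71.5 to 126 CPM, 54.6 to 74.4 CPM and 12.5 to 13.8 CPM. Of these Emcn and Erg had 0 counts, Cdh5 reached 117 CPM in PDGFRa-only replicate 1, and Tek had 9.43 to 13.8 CPM, highest in the PECAM1-only libraries. The marker sums move with the fractions as the members do, and their part in the members' differences was not tested. In bulk RNA, fewer cells that express a gene and less RNA per cell cannot be told apart.

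Library totals ran from 4809661 to 7273669 counts. The 152 members took 0.198% and 0.241% of all counts in the PDGFRa-only libraries, 0.159% and 0.187% in the double-positive and 0.0823% and 0.0795% in the PECAM1-only libraries. Most members were silent or nearly so: 52 had 0 counts in all 6 libraries and 38 had 1 to 10 counts in all. The count filter kept 44 members for testing, 15 inhibitors (12 serpins, 3 TIMPs), 26 proteases (9 ADAMs, 8 ADAMTSs, 9 MMPs) and 3 ADAMTSLs. The other 108 had at most 44 counts over the 6 libraries and were not tested. Of the 44, 7 lay above the filter's level of 1.57 CPM in 1 fraction only, so that passing the filter and differing between fractions are linked for them. They were Serpind1, Serpine3, Adamts8, Adamts15, Adamtsl1, Mmp21 and Mmp23. The link also holds for members above this level in 2 fractions only, such as Serpinb6b, Mmp12, Adam23, Mmp2 and Adamts14. Each lay below it in the fraction where it was lowest. For Mmp25 and Serpinf1 no fraction had both libraries above it. The calls of all these members are to be read with this link in mind.

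The first comparison set the PDGFRa-only fraction against the PECAM1-only fraction. Of the 44 tested members 25 rose and 12 fell in the PDGFRa-only fraction, and 7 did not pass (edgeR quasi-likelihood test, Benjamini-Hochberg adjusted p under 0.05 over 13909 genes). Over all genes tested, 30.1% rose and 28.8% fell, 59.0% in all, so the share of members that was lower (27.3%) lay near the background and the share that was higher (56.8%) above it. The median log2 fold change was 1.71 over the tested members and 0.01 over all tested genes. Among inhibitors 10 of 15 were higher and 2 lower, with a median of 2.37. Among proteases 14 of 26 were higher and 9 lower, with a median of 1.54. The share lower was 13.3% of inhibitors and 34.6% of proteases, a difference between the classes that was not tested. The 9 lower in the protease class include Adam22 and Adam23, whose products lack a working protease site. The difference therefore depends in part on how the classes were drawn. None of the 37 called members had overlapping libraries in these fractions. The same share was not taken over all called genes, so this marks no trait of the members.

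**Figure D1:**
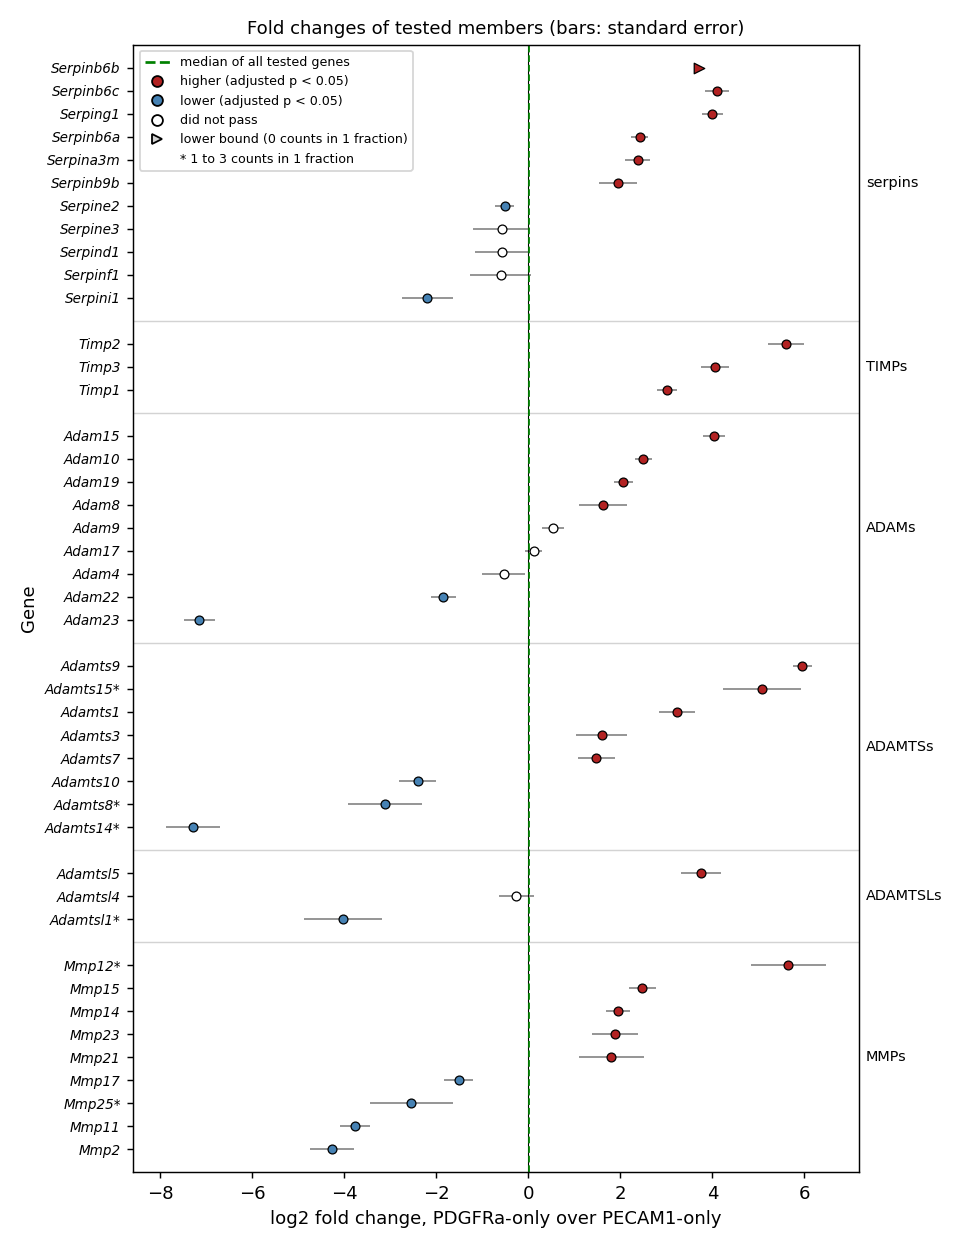
Log2 fold change (x axis) of 43 of the 44 tested members (y axis, by family) in the PDGFRa-only over the PECAM1-only fraction, with its standard error as a bar; red points were higher, blue points lower and white points did not pass. All 3 TIMPs lie at 3.01 or above, while ADAMTSs and MMPs lie on both sides of 0.

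All 3 tested TIMPs were many-fold higher in the PDGFRa-only than in the PECAM1-only fraction. Timp1 (chromosome X, 20870166 to 20874735) had 79.9 and 75.99 CPM in the PDGFRa-only libraries, 47.5 and 39.6 CPM in the double-positive libraries and 7.42 and 11.9 CPM in the PECAM1-only libraries. Its libraries fell into 3 separate levels, and the PDGFRa-only mean was 8.07-fold that of the PECAM1-only fraction (log2 fold change ± SE 3.01 ± 0.23, adjusted p = 3.12e-10). Timp3, which stays bound to the matrix, had 75.2 and 125.2 CPM in the PDGFRa-only libraries, 51.5 and 84.8 CPM in the double-positive libraries and 6.55 and 5.49 CPM in the PECAM1-only libraries. It was high in both PDGFRa-positive fractions, whose libraries overlapped each other, and low in the PECAM1-only fraction (4.06 ± 0.30, adjusted p = 9.15e-10). Timp2, which both inhibits MMP2 and helps MMP14 activate it, had 41.3 and 62.8 CPM in the PDGFRa-only libraries, 24.7 and 36.8 CPM in the double-positive libraries and 0.437 and 1.72 CPM in the PECAM1-only libraries. Both PECAM1-only libraries lay far below the others (5.60 ± 0.39, adjusted p = 1.99e-10). They held 14 counts in all, and the log2 fold change was 4.92 when PECAM1-only replicate 1 was left out (adjusted p = 5.30e-09) and 6.85 when PECAM1-only replicate 2 was left out (adjusted p = 5.46e-10). Timp4 had 1 count in all 6 libraries and was not tested. Some counts of Timp3 may belong to Syn3, whose exons overlap 1733 of the 8144 exonic bases of Timp3 on the opposite strand and which had 50 counts in all.

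Among serpins 7 of 12 tested members were higher (58.3%), 2 lower (16.7%) and 3 did not pass. Of all tested genes 30.1% were higher and 28.8% lower. Serping1, the C1 inhibitor that restrains complement and contact proteases (chromosome 2, 84765387 to 84775444), had 102.8 and 137.3 CPM in the PDGFRa-only libraries, 86.5 and 94.98 CPM in the double-positive libraries and 6.26 and 8.78 CPM in the PECAM1-only libraries. It was high in all 4 PDGFRa-positive libraries and low in both PECAM1-only libraries (4.002 ± 0.23, adjusted p = 3.44e-12). The others that rose are mainly intracellular clade B serpins from a cluster on chromosome 13. Serpinb6a had 155.1 and 183.8 CPM in the PDGFRa-only libraries, 117.5 and 94.8 CPM in the double-positive libraries and 31.2 and 32.1 CPM in the PECAM1-only libraries. Its order was PDGFRa-only, double-positive, PECAM1-only, without overlap (2.42 ± 0.18, adjusted p = 2.80e-10). Its neighbour Serpinb6c followed the same order at lower counts, with 46.9 and 44.4 CPM, 29.1 and 26.3 CPM and 2.18 and 3.14 CPM (4.10 ± 0.26, adjusted p = 2.84e-11). Serpinb6b, named after its values were seen, had 33 counts in the PDGFRa-only and 26 in the double-positive libraries and 0 in the PECAM1-only libraries, and was at least 13.2-fold higher against a floor of 3 counts over both PECAM1-only libraries. Serpinb9b, a relative of the granzyme inhibitor gene Serpinb9, had 8.98 and 11.2 CPM, 8.34 and 8.45 CPM and 4.22 and 0.941 CPM. Its PECAM1-only libraries differed from each other (1.95 ± 0.41, adjusted p = 0.000408). The log2 fold change was 3.42 when PECAM1-only replicate 1 was left out (adjusted p = 1.38e-05) and 1.27 when PECAM1-only replicate 2 was left out (adjusted p = 0.0105).

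Serpins outside clade B moved in both directions. Serpina3m, of the antichymotrypsin group that is expanded in mice, rose, with 19.8 and 25.4 CPM, 15.9 and 12.2 CPM and 5.10 and 3.61 CPM in the PDGFRa-only, double-positive and PECAM1-only libraries (2.37 ± 0.28, adjusted p = 3.30e-07). Serpine2, or protease nexin-1, an inhibitor of thrombin and plasminogen activators, had 48.9 and 30.4 CPM in the PDGFRa-only libraries, 46.4 and 50.1 CPM in the double-positive libraries and 61.00 and 50.8 CPM in the PECAM1-only libraries. All 6 libraries lay between 30.4 and 61.0 CPM, and the small difference passed downwards (-0.51 ± 0.21, adjusted p = 0.0413) but not in every setting. It was -0.19 when PDGFRa-only replicate 2 was left out (adjusted p = 0.446) and -0.35 when PECAM1-only replicate 1 was left out (adjusted p = 0.290). It was -0.49 when double-positive replicate 1 was left out (adjusted p = 0.0533) and -0.55 with DESeq2 (adjusted p = 0.0666). Serpini1, the neuronal tPA inhibitor neuroserpin, was the other serpin that fell, from 45 counts in the PECAM1-only to 8 in the PDGFRa-only libraries (-2.19 ± 0.55, adjusted p = 0.00182). The 3 that did not pass were Serpinf1, Serpind1 (heparin cofactor II) and Serpine3, all named after their values were seen, with log2 fold changes of -0.60, -0.58 and -0.58 and at most 27 counts in a fraction.

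Near-identical copies and overlapping exons touch several of these values. Of the 50-base words in the transcripts of Serpina3m 19.07% also occur in another gene (mostly Serpina3k), 9.92% for Serpinb6c and 2.92% for Serpinb6b (mostly each other), so their counts are uncertain to that extent. Exons of Nqo2, Ripk1 and another transcript overlap 1587 of the 5409 exonic bases of Serpinb6a. Those of Ints6, which had 2198 counts, overlap 348 of the 1402 exonic bases of Serpine3, which had 67. Proteases described below are touched too. The overlap covers 1263 of 6145 exonic bases for Adam15. For Adamts7, with 177 counts, it is 122 of 6282 bases, with Tbc1d2b at 1746 counts. The overlapping genes of Adamts9 had 391 and 166 counts against its 12373. The strand setting of the counting is not given in the sources used here, and without it reads of overlapping genes on opposite strands cannot be told apart.

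**Figure D2:**
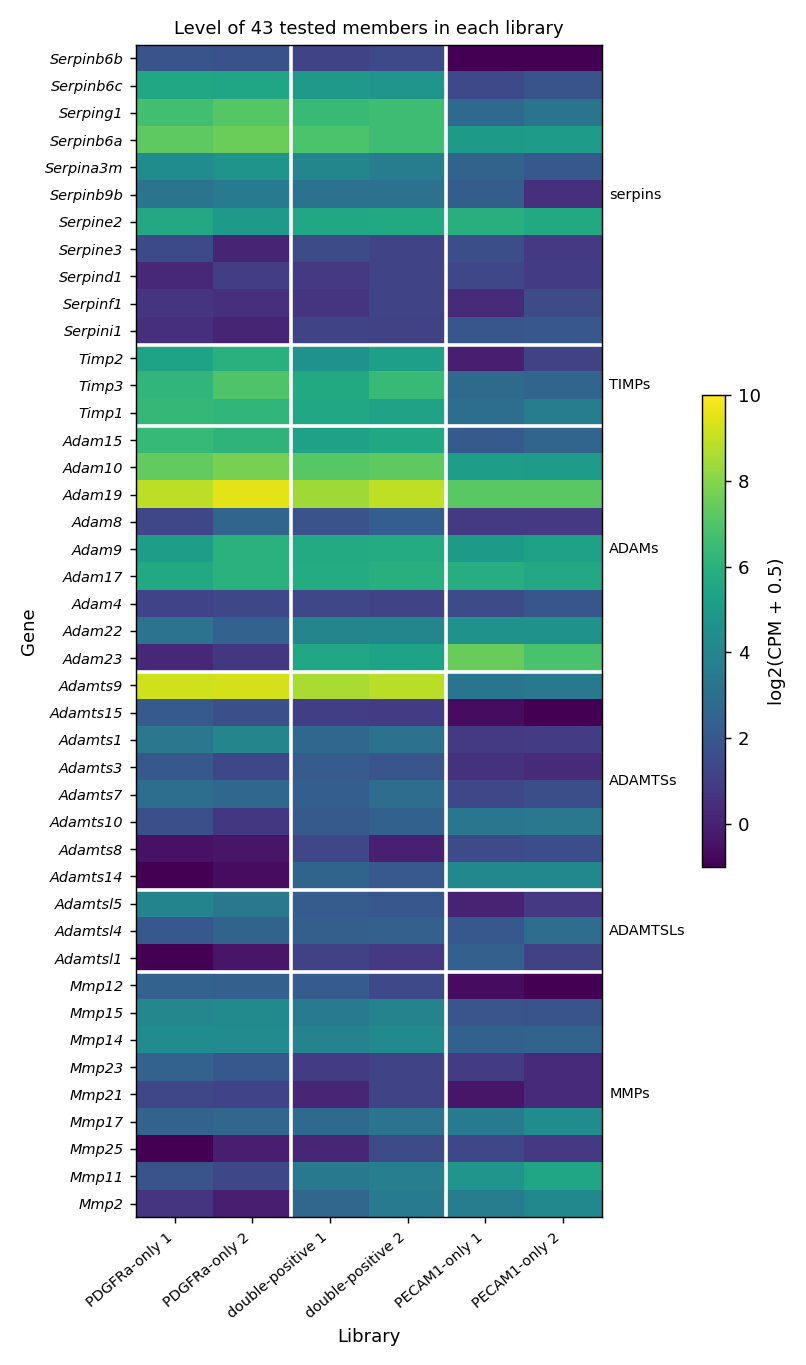
Level of 43 of the 44 tested members (rows, grouped by family and ordered by fold change) in each of the 6 libraries (columns, fraction and replicate), as log2(CPM + 0.5). This ordering puts rows high in the PDGFRa-only columns at the top of a family and any that are high in the PECAM1-only columns at the bottom. In most rows the double-positive columns lie between.

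Of 9 tested ADAM genes 4 were higher (44.4%), 2 lower (22.2%) and 3 did not pass, where 30.1% of all tested genes were higher and 28.8% lower. Adam19, or meltrin beta, a sheddase of neuregulins (chromosome 11, 46055992 to 46147343), was the most abundant protease transcript per length in each fraction, and had 478.4 and 746.4 CPM in the PDGFRa-only libraries, 349.0 and 494.8 CPM in the double-positive libraries and 146.6 and 146.1 CPM in the PECAM1-only libraries. It was high throughout and higher in the PDGFRa-positive libraries, whose fractions overlapped (2.07 ± 0.21, adjusted p = 4.15e-08). Adam10, the main sheddase of Notch receptors and an alpha-secretase of App, had 165.0 and 216.9 CPM in the PDGFRa-only libraries, 140.4 and 155.1 CPM in the double-positive libraries and 34.6 and 32.8 CPM in the PECAM1-only libraries. The PECAM1-only libraries were the lowest for it (2.50 ± 0.18, adjusted p = 1.68e-10). Adam15, whose disintegrin domain binds integrins, had 81.3 and 69.9 CPM in the PDGFRa-only libraries, 38.6 and 46.00 CPM in the double-positive libraries and 3.78 and 5.49 CPM in the PECAM1-only libraries. It showed the largest rise of the family, 16.3-fold (4.03 ± 0.24, adjusted p = 7.84e-12). Adam8, a sheddase best known from leukocytes, was called at low counts (46 against 17, 1.62 ± 0.52, adjusted p = 0.0116) and not in every setting. Its log2 fold change was 0.65 when PDGFRa-only replicate 2 was left out (adjusted p = 0.427) and 1.66 when PECAM1-only replicate 1 was left out (adjusted p = 0.0520). The value was 1.59 when PECAM1-only replicate 2 was left out (adjusted p = 0.0539) and 1.56 with DESeq2 (adjusted p = 0.0844).

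Adam17, the sheddase of TNF and of EGF receptor ligands, was even across the fractions. It had 51.4 and 65.3 CPM in the PDGFRa-only libraries, 54.8 and 59.8 CPM in the double-positive libraries and 57.6 and 50.02 CPM in the PECAM1-only libraries. The libraries of all 3 fractions overlapped (0.12 ± 0.18, adjusted p = 0.590). Adam9, or meltrin gamma, had 34.1 and 65.1 CPM, 52.4 and 53.4 CPM and 31.01 and 38.4 CPM in the same order of fractions and lay just outside the threshold (0.53 ± 0.23, adjusted p = 0.0576). The value depended on the PDGFRa-only libraries. It was -0.02 when PDGFRa-only replicate 2 was left out (adjusted p = 0.952) and 0.93 when PDGFRa-only replicate 1 was left out (adjusted p = 7.32e-05). It passed in 5 of 14 alternatives, also when either double-positive library was left out (0.55, adjusted p = 0.0449, and 0.54, adjusted p = 0.0493). Adam4, named after its values were seen, had 22 against 38 counts (-0.54 ± 0.47, adjusted p = 0.340), and 17.43% of its 50-base words occur in another gene.

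The 2 ADAMs that fell encode proteins without a working protease site. Adam23, a receptor for LGI proteins in neurons (chromosome 1, 63445891 to 63596276), had 0.673 and 1.21 CPM in the PDGFRa-only libraries, 48.5 and 41.2 CPM in the double-positive libraries and 172.8 and 113.2 CPM in the PECAM1-only libraries. Both PECAM1-only libraries stood above all others and both PDGFRa-only libraries near 1 CPM, on 11 counts in all (-7.15 ± 0.33, adjusted p = 1.59e-13). Adam22, its relative with the same ligands, had 8.76 and 4.99 CPM, 15.7 and 15.96 CPM and 24.02 and 23.99 CPM, again highest in the PECAM1-only fraction (-1.85 ± 0.27, adjusted p = 5.12e-06). No catalytic ADAM that was tested passed downwards.

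All 8 tested ADAMTS genes passed, 5 upwards (62.5%) and 3 downwards (37.5%). Of all tested genes 59.0% passed, 30.1% upwards and 28.8% downwards. Adamts8 and Adamts15 lay above the filter's level only in the fraction where they were high. Adamts1, Adamts3, Adamts10 and Adamts14 had both libraries above it only in the 2 fractions where they were higher. Adamts9, a secreted protease of versican (chromosome 6, 92772699 to 92943492), had 592.2 and 628.6 CPM in the PDGFRa-only libraries, 390.1 and 463.9 CPM in the double-positive libraries and 9.32 and 10.3 CPM in the PECAM1-only libraries. The 4 PDGFRa-positive libraries were far above the PECAM1-only libraries, 62.02-fold for the PDGFRa-only fraction (5.95 ± 0.20, adjusted p = 2.45e-15), and its adjusted p was the smallest of all members. Adamts1, which also cleaves versican and aggrecan, had 9.88 and 15.6 CPM, 5.98 and 8.29 CPM and 1.31 and 1.41 CPM (3.23 ± 0.39, adjusted p = 3.59e-07). Adamts7 (72 against 31 counts, 1.48 ± 0.39, adjusted p = 0.00289) and Adamts3, a procollagen N-proteinase (30 against 12 counts, 1.59 ± 0.55, adjusted p = 0.0168), rose at low counts. The call of Adamts3 was lost in some settings. Its log2 fold change was 1.22 when PDGFRa-only replicate 1 was left out (adjusted p = 0.110) and 1.43 when PECAM1-only replicate 2 was left out (adjusted p = 0.0911). It came to 1.60 with DESeq2 (adjusted p = 0.0985). Adamts15, named after its values were seen, had 35 counts against 1 in PECAM1-only replicate 1, a ratio of 41.9 (7.04 to 1700.3) with its 95% counting interval. Its fitted log2 fold change of 5.08 was 7.29 when PECAM1-only replicate 1 was left out (adjusted p = 0.000507) and 4.29 when PECAM1-only replicate 2 was left out (adjusted p = 0.00149).

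Adamts14, a procollagen N-proteinase like Adamts3, went the opposite way. It had 0 and 0.151 CPM in the PDGFRa-only libraries, 5.35 and 3.76 CPM in the double-positive libraries and 17.2 and 17.2 CPM in the PECAM1-only libraries. The PDGFRa-only fraction held 1 count, in replicate 2, against 228 in the PECAM1-only fraction, a ratio of 190.6 (33.9 to 7561) lower (-7.29 ± 0.58, adjusted p = 8.27e-10). The fitted value was -6.64 when PDGFRa-only replicate 1 was left out (adjusted p = 1.70e-12) and -9.71 when PDGFRa-only replicate 2 was left out (adjusted p = 1.01e-10). Adamts10, which binds fibrillin microfibrils, had 2.69 and 1.21 CPM, 3.78 and 4.85 CPM and 9.46 and 10.2 CPM and fell (-2.40 ± 0.40, adjusted p = 2.64e-05). Adamts8, named after its values were seen, fell from 33 counts to 3, a ratio of 9.20 (2.88 to 46.9). Of the ADAMTS-like genes, Adamtsl5 rose with 15.3 and 9.97 CPM, 4.09 and 3.44 CPM and 0.582 and 1.25 CPM (3.75 ± 0.44, adjusted p = 2.41e-07), or 4.38 when PECAM1-only replicate 2 was left out (adjusted p = 2.42e-06). Adamtsl1 fell from 43 counts to 2, a ratio of 17.97 (4.68 to 153.2), with a fitted log2 fold change of -4.02. That value was -3.32 when PDGFRa-only replicate 1 was left out (adjusted p = 0.00147) and -7.30 when PDGFRa-only replicate 2 was left out (adjusted p = 0.000564). The fit gave -3.12 when PECAM1-only replicate 1 was left out (adjusted p = 0.0252). Adamtsl4 did not pass, at 3.59 and 5.14 CPM, 4.56 and 4.69 CPM and 3.64 and 7.06 CPM (-0.26 ± 0.38, adjusted p = 0.587).

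All 9 tested MMP genes passed as well, 5 upwards (55.6%) and 4 downwards (44.4%). Of all tested genes 59.0% passed, 30.1% upwards and 28.8% downwards. Mmp21 and Mmp23 lay above the filter's level only in the fraction where they were high. Mmp2 and Mmp12 had both libraries above it only in the 2 fractions where they were higher, and Mmp25 in no fraction. Mmp14 (MT1-MMP), a collagenase of the cell surface that activates MMP2, had 19.8 and 19.03 CPM in the PDGFRa-only libraries, 14.8 and 18.2 CPM in the double-positive libraries and 4.80 and 5.17 CPM in the PECAM1-only libraries. Its PECAM1-only libraries lay below the 4 others (1.95 ± 0.26, adjusted p = 1.79e-06). Mmp15 (MT2-MMP) had 16.4 and 18.9 CPM, 11.2 and 14.7 CPM and 3.20 and 3.14 CPM, with the same order (2.47 ± 0.29, adjusted p = 3.06e-07). Mmp12, the macrophage elastase, had 53 counts against 1 in PECAM1-only replicate 1, a ratio of 63.4 (10.9 to 2551). Its fitted log2 fold change of 5.66 was 7.86 when PECAM1-only replicate 1 was left out (adjusted p = 6.17e-05) and 4.87 when PECAM1-only replicate 2 was left out (adjusted p = 0.000156). Mmp23, which is anchored in the membrane by its N-terminus, rose at 46 against 15 counts (1.88 ± 0.50, adjusted p = 0.00290). Mmp21, a gene of left-right patterning, rose at 21 against 7 counts (1.81 ± 0.70, adjusted p = 0.0328). That call was fragile, and its log2 fold change was 1.76 when PDGFRa-only replicate 1 was left out (adjusted p = 0.0769) and 1.90 when PDGFRa-only replicate 2 was left out (adjusted p = 0.0728). It was 1.27 when PECAM1-only replicate 1 was left out (adjusted p = 0.253) and 2.63 when PECAM1-only replicate 2 was left out (adjusted p = 0.0457). The value was 1.81 when double-positive replicate 2 was left out (adjusted p = 0.0508) and 1.80 with DESeq2 (adjusted p = 0.190). It came to 1.52 with library-size scaling (adjusted p = 0.0685) and 1.60 with upper-quartile scaling (adjusted p = 0.0575).

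Mmp2, or gelatinase A, the enzyme that Mmp14 and Timp2 together activate, was lower where both were higher. It had 1.12 and 0.453 CPM in the PDGFRa-only libraries, 5.66 and 10.8 CPM in the double-positive libraries and 11.6 and 17.1 CPM in the PECAM1-only libraries. Its PDGFRa-only libraries held 8 counts in all and lay below the 4 PECAM1-positive libraries (-4.26 ± 0.48, adjusted p = 1.57e-07). Its log2 fold change was -4.91 when PDGFRa-only replicate 1 was left out (adjusted p = 3.88e-09) and -3.65 when PDGFRa-only replicate 2 was left out (adjusted p = 1.31e-06). Mmp11, or stromelysin-3, had 3.14 and 2.11 CPM in the PDGFRa-only libraries, 10.4 and 12.5 CPM in the double-positive libraries and 25.9 and 44.2 CPM in the PECAM1-only libraries. It ran from the PECAM1-only libraries down through the double-positive to the PDGFRa-only libraries without overlap (-3.77 ± 0.33, adjusted p = 3.84e-09). Its exons share 155 of 2778 bases with Chchd10 on the opposite strand, which had 5177 counts. Mmp17 and Mmp25, whose products are held by a GPI anchor, also fell. Mmp17 had 4.94 and 5.74 CPM, 6.29 and 8.61 CPM and 10.9 and 20.1 CPM (-1.52 ± 0.32, adjusted p = 0.000385), and Mmp25 fell from 22 counts to 3, a ratio of 6.13 (1.84 to 31.99). Its fitted log2 fold change of -2.54 was -1.81 when PDGFRa-only replicate 1 was left out (adjusted p = 0.103) and -6.35 when PDGFRa-only replicate 2 was left out (adjusted p = 0.0114). The fit gave -2.14 when PECAM1-only replicate 1 was left out (adjusted p = 0.151) and -2.74 with DESeq2 (adjusted p = 0.0950). Mmp16 and Mmp24, membrane-type MMPs with a transmembrane anchor like Mmp14 and Mmp15, were named after their values were seen and had 5 and 40 counts, too few to be tested.

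Promoter sequence was read for the members that rose or fell together. RefSeq windows (GRCm38.p6, 250 bases before to 50 after a start) matched 32 of the 44 tested members by symbol, with 37 windows. The windows of Adamts9, Adam19 and Mmp12 are shown as those of strongly raised or abundant proteases, and that of Adam23 as the member that fell with the highest counts. Each is given in the sense of its gene, with a match to the AP-1 word TGAGTCA in capitals. For a gene with several windows, such as Adam19, the window with the AP-1 word was taken. Adam19 and Mmp12 are the only members that rose with this word, so the windows shown do not reflect how often it occurs.
Adamts9 chr6:92943485-92943784, minus strand: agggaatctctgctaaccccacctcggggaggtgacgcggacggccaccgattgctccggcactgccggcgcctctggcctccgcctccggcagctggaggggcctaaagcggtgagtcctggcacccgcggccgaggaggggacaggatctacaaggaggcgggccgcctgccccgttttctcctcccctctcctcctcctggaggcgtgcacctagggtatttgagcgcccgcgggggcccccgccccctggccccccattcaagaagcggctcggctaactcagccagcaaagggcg
Adam19 chr11:46055734-46056033, plus strand: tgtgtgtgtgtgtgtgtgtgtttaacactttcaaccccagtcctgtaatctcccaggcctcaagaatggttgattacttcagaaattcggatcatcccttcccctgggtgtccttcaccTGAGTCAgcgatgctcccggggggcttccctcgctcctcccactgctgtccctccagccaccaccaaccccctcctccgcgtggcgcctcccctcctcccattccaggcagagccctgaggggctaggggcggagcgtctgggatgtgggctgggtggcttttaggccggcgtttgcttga
Mmp12 chr9:7347124-7347423, plus strand: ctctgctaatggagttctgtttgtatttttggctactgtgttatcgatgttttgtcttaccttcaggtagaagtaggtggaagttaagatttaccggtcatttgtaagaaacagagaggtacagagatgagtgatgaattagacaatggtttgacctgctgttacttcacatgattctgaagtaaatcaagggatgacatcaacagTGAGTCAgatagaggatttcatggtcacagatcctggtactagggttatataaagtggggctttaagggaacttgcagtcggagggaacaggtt
Adam23 chr1:63445641-63445940, plus strand: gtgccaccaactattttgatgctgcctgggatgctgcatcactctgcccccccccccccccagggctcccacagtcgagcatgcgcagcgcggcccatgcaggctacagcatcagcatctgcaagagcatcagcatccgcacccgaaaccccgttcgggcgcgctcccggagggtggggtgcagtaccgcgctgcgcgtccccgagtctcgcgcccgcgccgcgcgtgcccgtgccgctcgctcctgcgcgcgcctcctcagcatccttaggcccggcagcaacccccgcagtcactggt
On either strand, TGAGTCA occurred in 2 of 25 windows (8.0%) of members that rose, 131 bases before the start of Adam19 and 44 bases before that of Mmp12, in 0 of 7 windows of members that fell, and in 5.20% of the 32851 RefSeq windows. The GATA words AGATAA or TGATAA occurred in 1 of 25 (4.0%), in another window of Adam19, in 0 of 7, and in 18.6% of all windows. The octamer ATGCAAAT occurred in 0 of 25, 0 of 7 and 1.74%. The median GC content was 57.0% in the windows of members that rose, 67.0% in those of members that fell and 52.7% in all windows. These are matches of letters in short windows and say nothing of binding.

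The inhibitor and protease transcripts were then summed in each library as CPM per kilobase of exon. The length covers all annotated exons of a gene and may exceed that of the transcripts expressed. Levels of different genes therefore compare only roughly on this scale. Inhibitors summed to 245 and 276 in the PDGFRa-only libraries, 171 and 168 in the double-positive and 36.3 and 40.8 in the PECAM1-only libraries. Proteases summed to 189 and 248, 155 and 190, and 82.1 and 89.0. The inhibitor sum changed more between fractions than the protease sum. The inhibitor to protease ratio was 1.202 ± 0.128 in the PDGFRa-only, 0.993 ± 0.155 in the double-positive and 0.450 ± 0.0113 in the PECAM1-only fraction (mean ± SD, n = 2). By library it was 1.29 and 1.11, 1.10 and 0.884, and 0.442 and 0.458. Both PECAM1-only libraries lay below the 4 others, while the lower PDGFRa-only library (1.11) lay next to the higher double-positive library (1.10). No test was made on this sum over chosen genes.

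Serpins, which mostly inhibit serine proteases and not the metalloproteases summed here, made up 135.2 and 158.4 of the inhibitor sum in the PDGFRa-only libraries, 104.4 and 103.8 in the double-positive and 27.0 and 26.2 in the PECAM1-only libraries. TIMPs made up 109.8 and 117.1, 66.2 and 64.5, and 9.28 and 14.5. The ratio is therefore one of transcript sums, not of enzymes to their own inhibitors.

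The ratio rests on few genes and on the scale. Timp1 made up 33.7%, 29.0% and 28.3% of the inhibitor sum in the PDGFRa-only, double-positive and PECAM1-only fractions, and Serping1 19.8%, 23.0% and 8.40%. Serpine2 made up 1.84%, 3.44% and 17.5%, the second largest share in the PECAM1-only fraction. On the protease side Adam19 made up 39.4%, 34.4% and 24.0%, Adamts9 18.6% and 16.4% in the first 2, and Mmp11 14.8% in the PECAM1-only fraction. Without Adam19 the ratio was 1.97, 1.50 and 0.593. With plain CPM, in which long transcripts weigh more, it was 0.394, 0.356 and 0.240, below 1 in each fraction. The order of the fractions was the same on each scale.

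**Figure D3:**
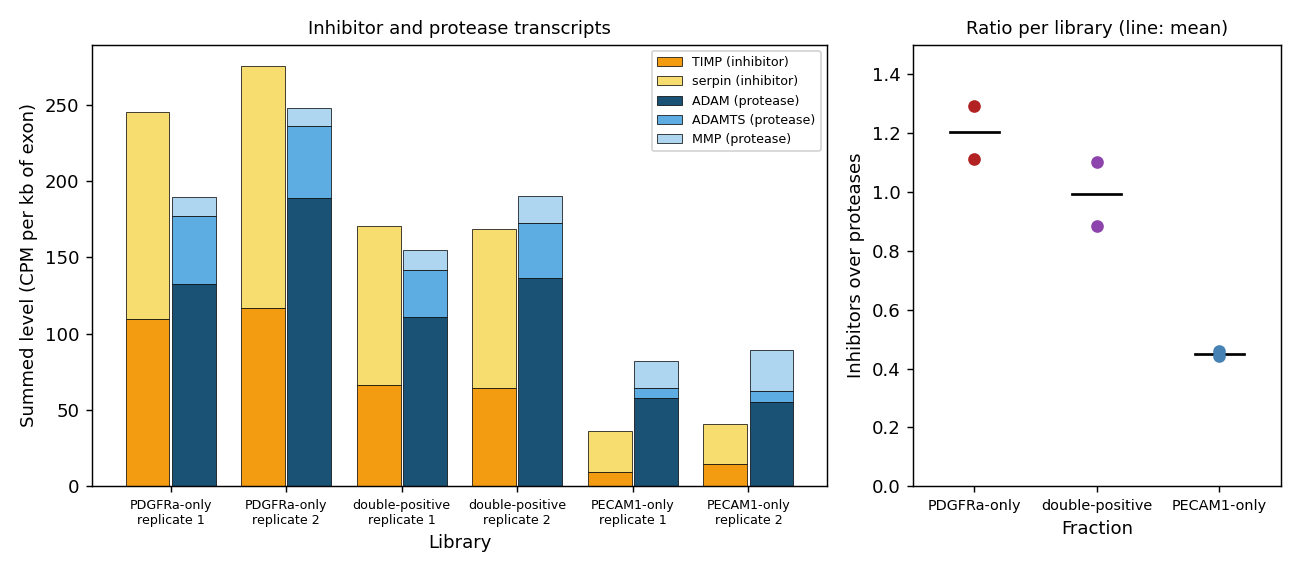
Left, summed CPM per kilobase of exon (y axis) of inhibitor families (orange and yellow) and protease families (blues) in each of the 6 libraries (x axis). Right, the ratio of both sums in each library (points) with the mean of 2 libraries (line): the PECAM1-only libraries sit at 0.442 and 0.458 and the 4 other libraries between 0.884 and 1.29.

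The second comparison set the double-positive fraction against the PECAM1-only fraction and so asked what differs among PECAM1-positive cells by PDGFRa. It shares the PECAM1-only libraries with the first comparison, so both sets of calls are not independent. Of 44 members 24 were higher (54.5%, against 21.8% of all tested genes) and 5 lower (11.4%, against 16.4%; in either direction 38.2% of all genes passed), with a median log2 fold change of 1.40 over members and -0.01 over all genes. Inhibitors counted 10 of 15 higher and 0 lower (median 1.68), and proteases 13 of 26 higher and 5 lower (median 0.91), the non-catalytic Adam23 among the 5. All 3 TIMPs were higher, with Timp1 at 2.17 ± 0.23, adjusted p = 1.17e-07, Timp2 at 4.83 ± 0.40, adjusted p = 6.48e-09 and Timp3 at 3.49 ± 0.30, adjusted p = 1.91e-08. Timp2 was 4.16 when PECAM1-only replicate 1 was left out (adjusted p = 2.29e-07) and 6.09 when PECAM1-only replicate 2 was left out (adjusted p = 1.51e-08).

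The serpins that rose were the 7 that rose in the first comparison. Serping1 had 3.59 ± 0.22, adjusted p = 4.01e-11, Serpinb6a 1.75 ± 0.18, adjusted p = 9.01e-08, Serpinb6c 3.38 ± 0.27, adjusted p = 1.83e-09 and Serpina3m 1.68 ± 0.29, adjusted p = 8.63e-05. Serpinb6b was at least 9.01-fold higher than the floor of the PECAM1-only libraries. Serpinb9b (1.67 ± 0.42, adjusted p = 0.00315) had 3.15 when PECAM1-only replicate 1 was left out (adjusted p = 0.000107) and 1.002 when PECAM1-only replicate 2 was left out (adjusted p = 0.0645). Serpine2 (-0.21 ± 0.20, adjusted p = 0.443) and Serpini1 (-0.91 ± 0.45, adjusted p = 0.125) did not pass.

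Among proteases Adamts9 was again the largest well-counted rise (5.44 ± 0.20, adjusted p = 1.26e-14), followed by Adam15 (3.19 ± 0.24, adjusted p = 8.45e-10), Adamts1 (2.38 ± 0.41, adjusted p = 8.05e-05), Adam10 (2.13 ± 0.18, adjusted p = 4.46e-09), Mmp15 (2.02 ± 0.30, adjusted p = 1.32e-05), Mmp14 (1.72 ± 0.26, adjusted p = 2.14e-05) and Adam19 (1.53 ± 0.20, adjusted p = 5.03e-06). Mmp12 and Adamts15 rose against 1 count, with ratios of 41.6 (7.04 to 1682) and 19.7 (3.14 to 820.5). The fitted value of Mmp12 was 7.26 when PECAM1-only replicate 1 was left out (adjusted p = 0.000726) and 4.26 when PECAM1-only replicate 2 was left out (adjusted p = 0.00203). That of Adamts15 was 6.20 when PECAM1-only replicate 1 was left out (adjusted p = 0.0121) and 3.20 when PECAM1-only replicate 2 was left out (adjusted p = 0.0399). Adamts3 (1.97 ± 0.52, adjusted p = 0.00452) passed, as did the ADAMTS-like gene Adamtsl5 (2.03 ± 0.49, adjusted p = 0.00250). The latter had 2.67 when PECAM1-only replicate 2 was left out (adjusted p = 0.00447). The remaining rises were settings-dependent. Adamts7 (1.30 ± 0.39, adjusted p = 0.0121) had 1.14 when PECAM1-only replicate 1 was left out (adjusted p = 0.104) and 0.91 when double-positive replicate 2 was left out (adjusted p = 0.216). It was 1.24 with DESeq2 (adjusted p = 0.0790). Adam8 (1.51 ± 0.52, adjusted p = 0.0271) had 1.56 when PECAM1-only replicate 1 was left out (adjusted p = 0.105) and 1.49 when PECAM1-only replicate 2 was left out (adjusted p = 0.105). The value was 1.22 when double-positive replicate 2 was left out (adjusted p = 0.190) and 1.45 with DESeq2 (adjusted p = 0.133). It came to 1.30 with library-size scaling (adjusted p = 0.0503). Adam9 (0.61 ± 0.23, adjusted p = 0.0453) had 0.48 when PECAM1-only replicate 1 was left out (adjusted p = 0.250) and 0.78 when PECAM1-only replicate 2 was left out (adjusted p = 0.0545). The fit gave 0.64 when double-positive replicate 1 was left out (adjusted p = 0.0834) and 0.60 when double-positive replicate 2 was left out (adjusted p = 0.116). It was 0.54 with DESeq2 (adjusted p = 0.137) and 0.54 with RLE scaling (adjusted p = 0.0737). The value was 0.39 with library-size scaling (adjusted p = 0.174) and 0.57 with a minimum count of 30 (adjusted p = 0.0578). It came to 0.44 with upper-quartile scaling (adjusted p = 0.131). The 5 that fell were Adam23 (-1.67 ± 0.20, adjusted p = 1.01e-06), Adamts14 (-1.91 ± 0.30, adjusted p = 2.71e-05), Mmp11 (-1.61 ± 0.26, adjusted p = 4.89e-05), Adamts10 (-1.18 ± 0.34, adjusted p = 0.00851) and Mmp17 (-1.05 ± 0.30, adjusted p = 0.00881). Adamts10 had -1.12 when PECAM1-only replicate 2 was left out (adjusted p = 0.0619) and -0.99 when double-positive replicate 1 was left out (adjusted p = 0.104). Mmp17 had -0.54 when PECAM1-only replicate 2 was left out (adjusted p = 0.297) and -0.82 when double-positive replicate 1 was left out (adjusted p = 0.113). Mmp2 (-0.80 ± 0.32, adjusted p = 0.0522) and Adam22 (-0.60 ± 0.24, adjusted p = 0.0527) lay just outside the threshold. Mmp2 passed in 10 of 14 alternatives and Adam22 in 8. Mmp2 ran from -0.385 when double-positive replicate 1 was left out (adjusted p = 0.504) to -1.33 when double-positive replicate 2 was left out (adjusted p = 0.0143). Adam22 ran from -0.56 to -0.81, with adjusted p from 0.00957 to 0.214. Both passed when either PDGFRa-only library was left out.

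The third comparison, PDGFRa-only against double-positive, separated PDGFRa-positive cells by PECAM1, and shares libraries with both others. Of 44 members 7 were higher (15.9%, against 5.94% of all tested genes) and 6 lower (13.6%, against 11.7%; in either direction 17.6% of all genes passed), with a median log2 fold change of 0.21 over members and 0.00 over all genes. Inhibitors counted 4 of 15 higher and 0 lower, and proteases 2 of 26 higher and 5 lower, the non-catalytic Adam22 and Adam23 among the 5. The inhibitors that rose did so by less than 2-fold: Timp1 (0.84 ± 0.20, adjusted p = 0.00502), Timp2 (0.77 ± 0.25, adjusted p = 0.0420), Serpinb6a (0.68 ± 0.17, adjusted p = 0.00731) and Serpinb6c (0.72 ± 0.20, adjusted p = 0.0162). Each was lost in some setting. Timp1 had 0.71 when double-positive replicate 2 was left out (adjusted p = 0.0753). Timp2 had 0.42 when PDGFRa-only replicate 2 was left out (adjusted p = 0.274) and 0.50 when double-positive replicate 1 was left out (adjusted p = 0.352). The fit gave 0.80 with DESeq2 (adjusted p = 0.0730) and 0.69 with library-size scaling (adjusted p = 0.0663). It was 0.73 with upper-quartile scaling (adjusted p = 0.0569). Serpinb6a had 0.53 when double-positive replicate 2 was left out (adjusted p = 0.156). Serpinb6c had 0.79 when double-positive replicate 1 was left out (adjusted p = 0.0784) and 0.65 when double-positive replicate 2 was left out (adjusted p = 0.151). The proteases that rose were Adam15 (0.84 ± 0.19, adjusted p = 0.00405) and Adamts9 (0.52 ± 0.16, adjusted p = 0.0253). Adam15 had 0.71 when double-positive replicate 1 was left out (adjusted p = 0.0794). Adamts9 had 0.39 when double-positive replicate 1 was left out (adjusted p = 0.321) and 0.64 when double-positive replicate 2 was left out (adjusted p = 0.0649). The value was 0.49 with only these 2 fractions fitted (adjusted p = 0.0523). Adamtsl5 rose in every alternative run (1.72 ± 0.35, adjusted p = 0.00166). Another 12 members passed in at least 1 alternative.

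All 6 decreases in the third comparison were past 2-fold, as was 1 of the 7 increases, that of Adamtsl5. Adam23 fell from 571 counts in the double-positive to 11 in the PDGFRa-only libraries (-5.47 ± 0.35, adjusted p = 5.60e-10), Mmp2 from 105 to 8 (-3.46 ± 0.51, adjusted p = 5.85e-05), Mmp11 from 146 to 28 (-2.16 ± 0.36, adjusted p = 0.000226) and Adam22 from 202 to 72 (-1.25 ± 0.28, adjusted p = 0.00329). Adamts14 fell from 58 counts to 1, a ratio of 50.4 (8.69 to 2024). Adamtsl1 fell from 19 counts to 2, a ratio of 8.25 (1.99 to 73.1). Its fitted log2 fold change of -2.92 was -2.23 when PDGFRa-only replicate 1 was left out (adjusted p = 0.130) and -6.21 when PDGFRa-only replicate 2 was left out (adjusted p = 0.0306). It came to -2.93 when PECAM1-only replicate 1 was left out (adjusted p = 0.0528) and -2.68 when double-positive replicate 1 was left out (adjusted p = 0.173). The fit gave -3.14 when double-positive replicate 2 was left out (adjusted p = 0.0635) and -3.07 with DESeq2 (adjusted p = 0.136). The value of Mmp2 was -4.12 when PDGFRa-only replicate 1 was left out (adjusted p = 7.32e-06) and -2.86 when PDGFRa-only replicate 2 was left out (adjusted p = 0.000791). That of Adamts14 was -4.74 when PDGFRa-only replicate 1 was left out (adjusted p = 1.84e-05) and -7.80 when PDGFRa-only replicate 2 was left out (adjusted p = 6.16e-05).

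Across the 3 fractions, the double-positive mean lay between those of the single-positive fractions for 24 of the 25 members that rose and all 12 that fell in the first comparison. The exception was Adamts3, whose double-positive mean was 127% of the PDGFRa-only mean. The share between was not taken over all called genes, so this order is not shown to be particular to the members. Among the 25, the double-positive mean was a median 65.4% of the PDGFRa-only mean (29.9% to 127%), and among the 12 a median 49.2% of the PECAM1-only mean (26.4% for Adamts14 to 90.4%). Pecam1 and Pdgfra themselves, the genes of the gates, lay at 53.8 and 44.9 CPM and at 552 and 518 CPM in the double-positive libraries. By calls, 16 members were higher in both PDGFRa-positive fractions than in the PECAM1-only fraction and did not pass between the first 2, and 7 passed upwards in all 3 comparisons: Timp1, Timp2, Serpinb6a, Serpinb6c, Adam15, Adamts9 and Adamtsl5. Stepwise falls in all 3 were seen for 3 members, Adam23, Adamts14 and Mmp11. Mmp2, Adam22 and Adamtsl1 were lower in the PDGFRa-only fraction than in either other fraction, without passing between the other 2. Adam17, Adam4, Adamtsl4, Serpinf1, Serpind1 and Serpine3 passed in no comparison. These counts by pattern were not set beside those of all tested genes.

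**Figure D4:**
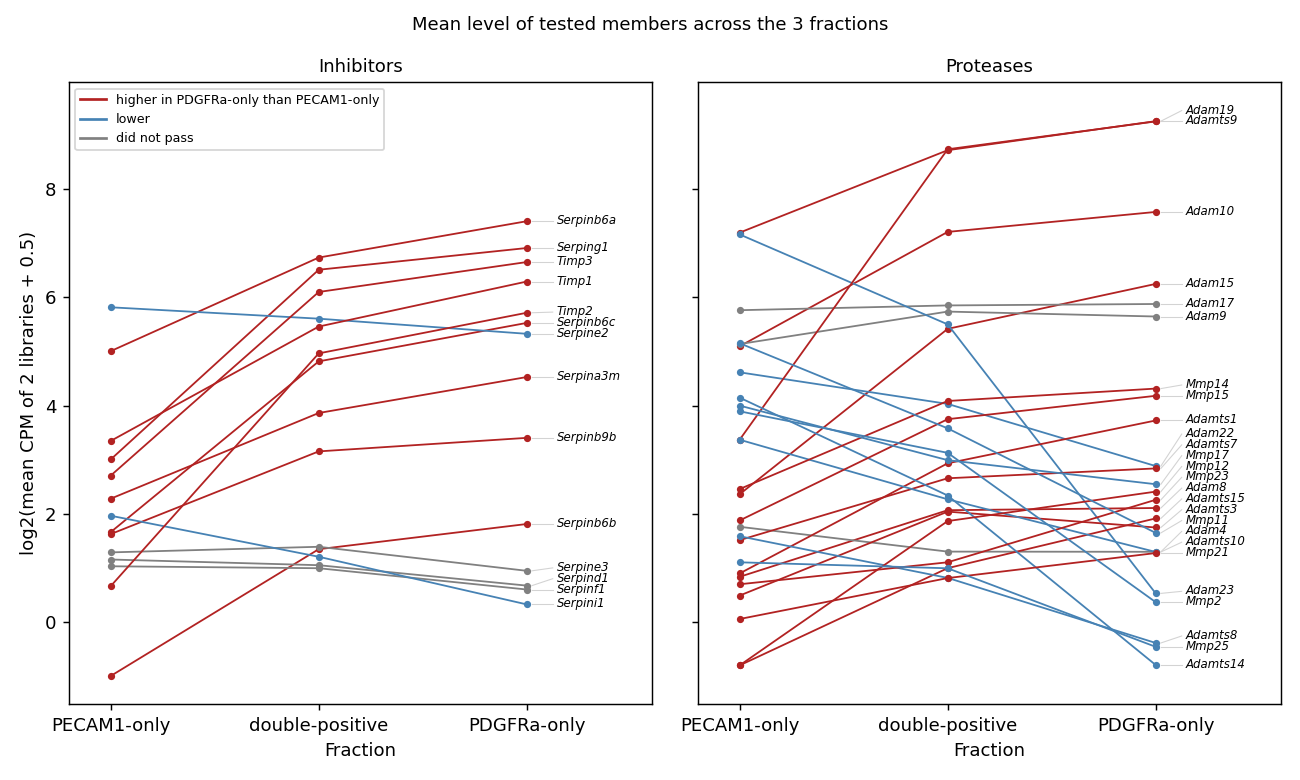
Mean level, as log2(mean CPM + 0.5) of 2 libraries (y axis), of tested inhibitors (left) and proteases (right) in the PECAM1-only, double-positive and PDGFRa-only fractions (x axis); red lines rose, blue lines fell and grey lines did not pass between the single-positive fractions. Inhibitor lines run mostly upwards, and protease lines cross, with Adam23 and Adamts14 falling and Adamts9 rising most.

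Many members without counts lie in gene clusters, taken here as runs of members less than 500000 bases apart. The serpin cluster of chromosome 13 (Serpinb1a to Serpinb6a, 32842092 to 34002794) held 16 members. Of these 4 were tested and all 4 rose in the first comparison, where 30.1% of all tested genes rose: Serpinb6a, Serpinb6b, Serpinb6c and Serpinb9b. The serpin cluster of chromosome 1 (Serpinb5 to Serpinb8) held 12 members, with 10 at 0 counts and none tested. The chromosome 12 cluster (Serpina10 to Serpina3n) of mostly liver-type serpins held 28 members, with 19 at 0 counts and only Serpina3m tested. The MMP cluster of chromosome 9 (Mmp13 to Mmp7), with the collagenases and stromelysins, held 10 members, of which 3 had 0 counts and only Mmp12 was tested. Mmp9, or gelatinase B, named after its values were seen, had 19 counts in all. The chromosome 8 clusters of ADAM genes (Adam24 to Adam39, 4 members, and Adam26b to Adam34, 3 members) had none tested. A count of 0 over both libraries of a fraction is compatible with up to 3 counts there, so low expression was not detectable at this depth.

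Genes that work with the members were followed in 7 further lists. Their counts in the PDGFRa-only against the PECAM1-only fraction stand beside 30.1% of all tested genes that rose and 28.8% that fell, 59.0% in all, and no difference between lists was tested. The lists were chosen with earlier results of these data known, so their shares describe the chosen genes and are no evidence about whole pathways. In the plasminogen system 5 of 6 tested genes (9 listed) rose (83.3%) and 1 fell (16.7%), with a median log2 fold change of 2.82. Plat, or tPA, the activator that Serpine2 and Serpini1 inhibit, had 70.04 and 82.5 CPM in the PDGFRa-only libraries, 43.4 and 51.6 CPM in the double-positive libraries and 0.146 and 0.157 CPM in the PECAM1-only libraries. Its PECAM1-only libraries held 1 count each, a ratio of 513.2 (141.6 to 4244). Plaur, the receptor of urokinase, had 66.5 and 92.8 CPM, 51.5 and 59.5 CPM and 1.46 and 3.45 CPM (5.03 ± 0.30, adjusted p = 6.47e-12), and Anxa2, a plasminogen receptor subunit, 240.7 and 259.5 CPM, 141.1 and 147.5 CPM and 33.3 and 39.7 CPM (2.78 ± 0.17, adjusted p = 1.35e-11). Plau, urokinase itself, named after its values were seen, was not tested, with 2 counts in the PDGFRa-only and 0 in the PECAM1-only libraries. Lrp1, the endocytic receptor that clears protease-serpin complexes, was the gene that fell, with 5.61 and 6.65 CPM, 36.7 and 53.2 CPM and 96.2 and 127.8 CPM (-4.17 ± 0.25, adjusted p = 1.00e-11).

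Pericellular serine proteases and convertases rose in 10 of 14 tested genes (71.4%; 18 listed) and fell in 1 (7.14%), with a median of 2.55. Furin, the convertase that cuts the propeptides of many ADAMs and membrane-type MMPs, had 183.9 and 112.8 CPM in the PDGFRa-only libraries, 86.7 and 80.6 CPM in the double-positive libraries and 6.11 and 11.6 CPM in the PECAM1-only libraries. It was high in all PDGFRa-positive libraries (4.07 ± 0.27, adjusted p = 2.04e-10), as were Htra1, a secreted serine protease (4.80 ± 0.25, adjusted p = 9.51e-13), and Prss35 (3.74 ± 0.24, adjusted p = 3.16e-11). Habp2, a plasma hyaluronan-binding protease, had 982 counts against 0, at least 391.6-fold higher than the floor. Of astacins and other surface metalloproteases 4 of 8 tested (14 listed) rose (50%) and 1 fell (12.5%), 5 of 8 in all and near the share of all genes, with a median of 0.56. Bmp1, the procollagen C-proteinase, had 24.02 and 23.4 CPM, 11.5 and 15.2 CPM and 1.16 and 1.10 CPM (4.36 ± 0.33, adjusted p = 4.33e-10), Mep1b, or meprin beta, 29.9 and 35.5 CPM, 21.6 and 21.1 CPM and 5.10 and 3.14 CPM (2.98 ± 0.27, adjusted p = 4.92e-09), and Enpep, an aminopeptidase, 233 counts against 1, a ratio of 278.7 (49.5 to 11055). Ece1, which processes endothelin, fell (-1.92 ± 0.24, adjusted p = 5.37e-07).

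Of other inhibitor families 4 of 10 tested genes (21 listed) were higher (40%) and 2 lower (20%), against 30.1% and 28.8% of all genes, with a median of 0.09. Tfpi, the inhibitor of the tissue factor pathway, had 751.8 and 1124 CPM in the PDGFRa-only libraries, 633.5 and 759.7 CPM in the double-positive libraries and 69.7 and 44.7 CPM in the PECAM1-only libraries. It was high in every PDGFRa-positive library (4.03 ± 0.23, adjusted p = 1.60e-11), and so were Cst3, or cystatin C (4.71 ± 0.18, adjusted p = 1.55e-14), and the trypsin inhibitor gene Spink3 (6.84 ± 0.34, adjusted p = 5.47e-13). A2m, the broad protease trap alpha-2-macroglobulin, had 0.449 and 1.66 CPM, 10.4 and 8.61 CPM and 43.96 and 52.5 CPM, lowest in the PDGFRa-only libraries (-5.35 ± 0.35, adjusted p = 3.16e-11).

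Partners of ADAM proteases rose in 4 of 5 tested genes (80%; 8 listed, 30.1% of all genes), with a median of 1.73 and none lower. Tspan5 (2.54 ± 0.21, adjusted p = 1.73e-09) and Tspan14 (1.82 ± 0.21, adjusted p = 1.91e-07) encode tetraspanins that escort ADAM10 to the surface, and Rhbdf1 (1.38 ± 0.35, adjusted p = 0.00185) and Rhbdf2 (1.73 ± 0.18, adjusted p = 6.44e-08) the iRhoms that escort ADAM17. Of known ADAM substrates 3 of 14 tested (19 listed) were higher (21.4%) and 7 lower (50%, against 28.8% of all genes), with a median of -0.44. App had 164.6 and 229.8 CPM, 139.7 and 151.9 CPM and 5.68 and 4.70 CPM, high with PDGFRa (5.24 ± 0.23, adjusted p = 7.56e-14), while Notch3, with 4.94 and 6.19 CPM, 18.4 and 31.3 CPM and 42.1 and 67.7 CPM (-3.28 ± 0.30, adjusted p = 1.39e-08), and the adhesion gene L1cam (-3.50 ± 0.45, adjusted p = 9.44e-07) fell and Notch4 fell from 135 counts to 2, a ratio of 56.4 (15.3 to 470.7). Of substrates and partners of ADAMTSs in the matrix 2 of 10 tested (12 listed) were higher (20%) and 7 lower (70%, against 28.8% of all genes), with a median of -2.20. Vcan, or versican, the main known substrate of Adamts1 and Adamts9, had 23.1 and 26.1 CPM in the PDGFRa-only libraries, 32.9 and 46.5 CPM in the double-positive libraries and 72.3 and 66.2 CPM in the PECAM1-only libraries. It was highest in the PECAM1-only libraries, where both proteases were lowest (-1.49 ± 0.20, adjusted p = 2.00e-06). The TGF-beta binding genes Ltbp1 (-2.96 ± 0.38, adjusted p = 8.62e-07) and Ltbp4 (-1.44 ± 0.20, adjusted p = 2.44e-06) fell too, and Bgn, or biglycan, rose with 105 counts against 1, a ratio of 125.6 (22.1 to 5008).

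**Figure D5:**
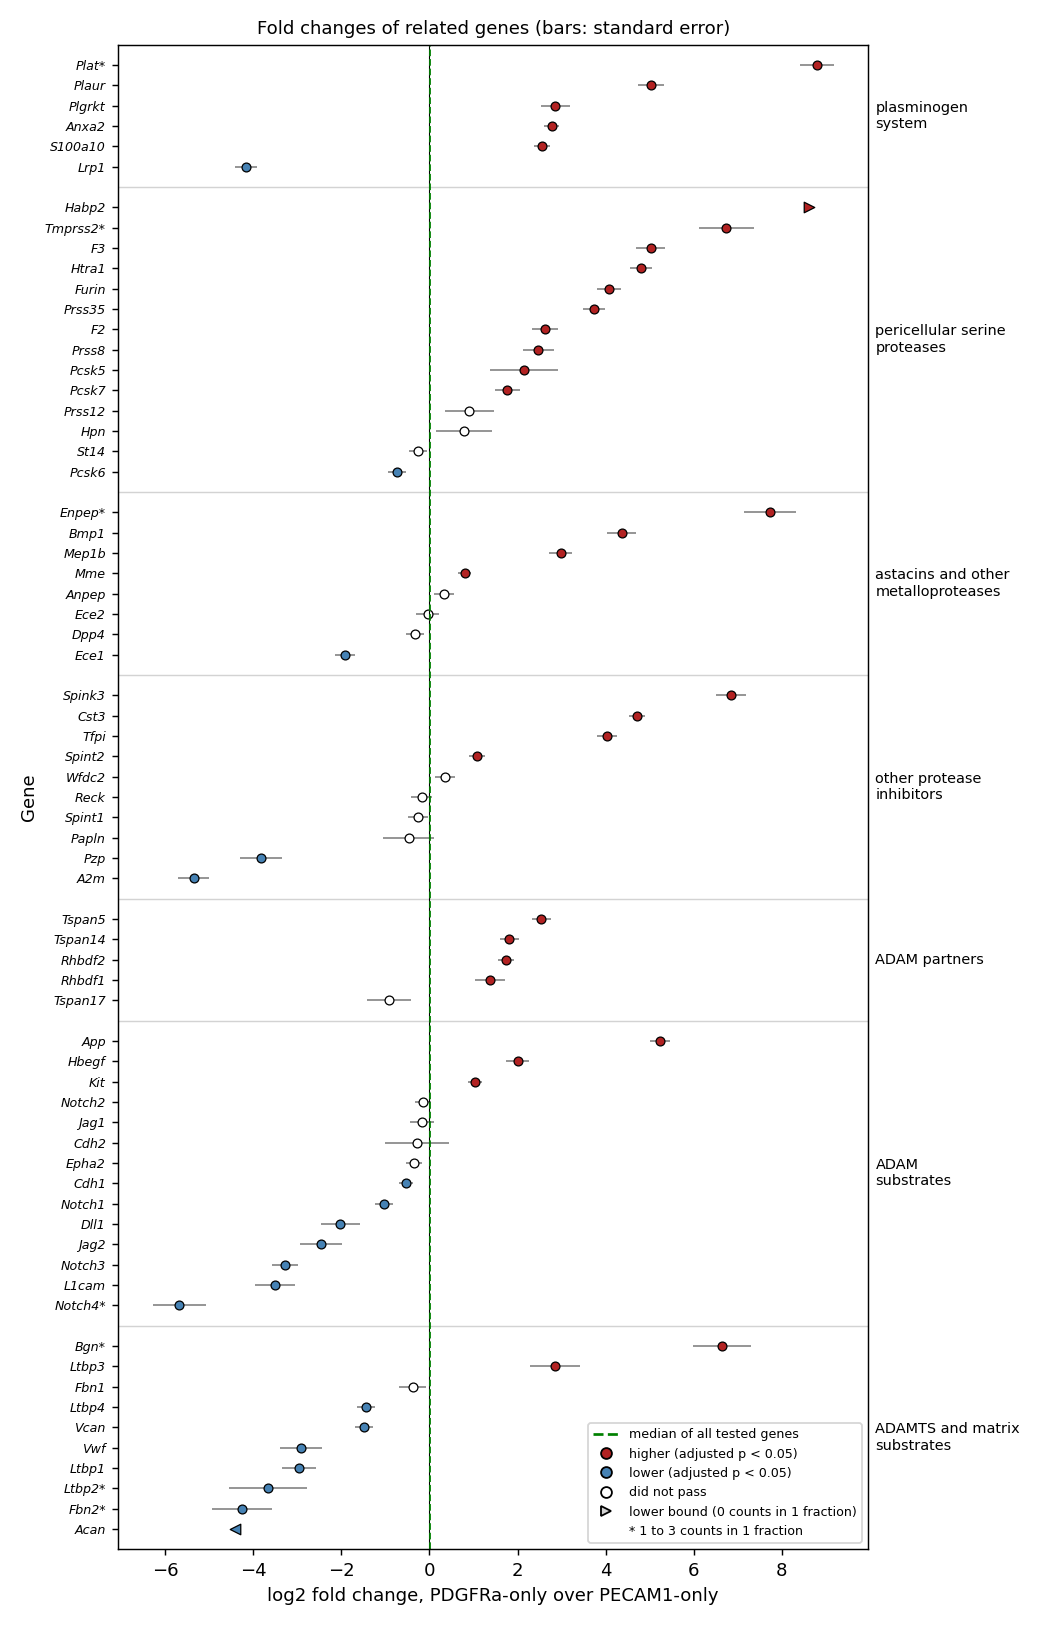
Log2 fold change (x axis) in the PDGFRa-only over the PECAM1-only fraction of the tested genes of 7 related lists (y axis), with standard errors as bars; red rose, blue fell, white did not pass, and triangles are bounds for genes with 0 counts in 1 fraction. Plasminogen, serine protease and ADAM partner genes lie mostly to the right of 0, and matrix substrates mostly to the left. The lists were chosen with earlier results of these data known.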

How the data were processed

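The authors deposited raw counts per Ensembl gene for 6 libraries. Per the submitters' processing notes, the build was GRCm38 and the tools were HTSeq 0.5.4p3, TopHat2 2.0.8b, Bowtie2 2.1.0 and cutadapt 1.2.1; their roles, the annotation release and the strand setting are not given in the sources used here. A deposited RPKM table was not used, since its preprocessing is not stated. Genes were tested with edgeR 4.0.16 (R 4.3.3, limma 3.58.1): filterByExpr with a minimum count of 10 (13909 genes), TMM scaling, robust quasi-likelihood fit of all 6 libraries with 1 mean per fraction (3 residual degrees of freedom), two-sided tests, Benjamini-Hochberg adjustment over all genes tested and a threshold of 0.05. The biological coefficient of variation was 13.5%. Standard errors of log2 fold changes, in text and figures, were worked back as the absolute log2 fold change over the square root of its F statistic. The fit was tested on simulated data. Genes with 0 counts in a fraction are given as bounds against 3 counts over both libraries, and those with 1 to 3 counts as ratios with exact 95% intervals, which cover counting error only and count reads, not molecules. Positions, exon lengths and shared 50-base words came from GENCODE M21, which matched 36639 of 38561 identifiers and all 152 members. Motifs were searched with Python 3.11.15 on both strands of RefSeq promoter windows. Figures were drawn with matplotlib 3.10.9.

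The text names up to 8 members per family (ADAMTS and ADAMTSL together) with the highest fraction mean CPM and up to 4 with the smallest p in each comparison, and up to 4 genes per further list. A tested member that falls under this rule is not reported here on its own, in text or figures, but counts in the totals. The members and lists were chosen with earlier results of these data known. Alternatives were other scalings, count filters, DESeq2 1.42.0, a fit of 2 fractions alone, the replicate number as a block and each library left out.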

Additional observations from a re-analysis of the deposited data

How the results depend on the processing

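No called member turned its direction in any alternative. Of 37 members called between the single-positive fractions 32 kept the call in every alternative that tested them. The same held for 22 of 29 called between double-positive and PECAM1-only and for 6 of 13 between PDGFRa-only and double-positive. Some members, such as Adamts15 (13 of 14 alternatives in the first comparison and 12 in the second), were not tested in all. Counts that moved by over 1.5 times were these. Between the single-positive fractions, inhibitors lower went from 2 to 1 with a minimum count of 30 and with DESeq2 (1 to 2 with a library left out), and proteases higher from 14 to 8 with a minimum count of 30, under which fewer genes are tested. Between double-positive and PECAM1-only, members lower and proteases lower, both 5, ranged from 3 to 7 with a library left out, and proteases higher went from 13 to 8 with a minimum count of 30. Between PDGFRa-only and double-positive, with a library left out, members higher (7) ranged from 3 to 13, inhibitors higher (4) from 2 to 7, inhibitors lower (0) from 0 to 1 and proteases higher (2) from 0 to 5; proteases higher were 4 with RLE scaling and 1 with only these 2 fractions fitted. The cause was not tested. The labels do not say whether same-numbered libraries share a culture or sort, and the pairing was not settled by the data: their deviations from the fraction means correlated across genes with -0.03 (PDGFRa-only and PECAM1-only), 0.13 (PDGFRa-only and double-positive) and 0.18 (PECAM1-only and double-positive). With the replicate block, the third comparison counted 13 members, 7 inhibitors and 5 proteases higher. Upper-quartile and library-size scaling shifted the median of all genes between the single-positive fractions by -0.20 and -0.29 (log2), and between double-positive and PECAM1-only by -0.17 and -0.21.

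The inhibitor to protease ratio, in the order PDGFRa-only, double-positive and PECAM1-only, was 0.394, 0.356 and 0.240 with plain CPM and 1.97, 1.50 and 0.593 without Adam19. In the PECAM1-only fraction it was 0.427 without Timp1 and Adam19 and 0.510 without the ADAMs that lack a protease site. The settings without those ADAMs and without Adam19 alone were added after seeing the data. A search for the zinc-binding motif in protein sequences was not run, since no protein sequences were used here.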
